A study of Homo sapiens with 2 samples.

Results

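The genes described here are those that encode SR proteins, heterogeneous nuclear ribonucleoproteins (hnRNPs), proteins of the small nuclear ribonucleoproteins (snRNPs) and the SF3A and SF3B subunits of the U2 snRNP. They were chosen by name alone: protein-coding rows whose symbol begins with SRSF and a digit, HNRNP, SNRP, or SF3A or SF3B and a digit, with SNRPN left out. The rule found 59 of the 19656 protein-coding rows among 33538 gene rows, namely 12 SR proteins, 27 hnRNPs, 7 proteins of the Sm ring, 4 proteins particular to the U1 or U2 snRNP and 9 SF3 subunits, and 54 of the 59 had at least 1 UMI (unique molecular identifier, a tag that counts 1 captured mRNA molecule). Cells of the human neuroblastoma line SH-SY5Y (SY5Y), untreated, were grown from 1 culture in 2 flasks, named SplitA and SplitB, and were not synchronized. Each flask received its own hashtag antibody before the cells were pooled for 1 CITE-seq experiment, and no treatment, genotype or time differs between the groups. Hashtag 1 was read as SplitA and hashtag 2 as SplitB after the study's code, since the sample labels give the same split number for both hashtags. A cell was given to a flask where 1 hashtag count was at least 3 times the other and the other stayed at or below the limit of the study's code, which left 1179 cells in SplitA and 1605 in SplitB of 2879, with 95 multiplets set aside. A doublet of 2 cells from the same flask cannot be seen by its hashtags, and no doublet caller was run.

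Singlets held 505 to 27205 UMIs each and 14905923 UMIs together, and no barcode occurred more than once in the library. Of 10 adrenergic neuroblastoma markers, 9 were above 10 CPM (UMIs of a gene scaled to 1000000 UMIs of all genes) in both flasks, TH being the exception, while 1 of 10 mesenchymal or Schwann-like markers was, TWIST1. PRRX1 and TNC, defining genes of the mesenchymal state, had 0 CPM in both flasks. The summed markers reached 3180 and 3052 CPM for the adrenergic list and 171 and 167 CPM for the other. No second cell type that lacks the splicing genes was in the library, so the level that free RNA alone would give was not measured.

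Splicing removes introns in the spliceosome, which is built on each intron from snRNPs. The Sm proteins form a ring around the small nuclear RNA of most spliceosomal snRNPs, the U1 snRNP pairs with the start of the intron, and SF3A and SF3B anchor the U2 snRNP at the branch site. SR proteins bind exons and mostly favour their inclusion, whereas hnRNPs coat nascent RNA, often act against SR proteins at shared exons, and also take part in RNA transport, stability and translation. In neurons both groups set exons particular to that tissue, and many of these genes control their own level by splicing of their own transcripts.

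The promoters of 4 genes are shown, because these genes had the largest rise and the largest fall among called genes between S and G1 (SRSF10 and SRSF5) and between cells of high and low mitochondrial share (HNRNPM and SF3B5). Each is the 250 bases before the transcript start in RefSeq (build GRCh38.p14), written 5′ to 3′ on the strand of the gene. Capitals mark matches, on either strand, to the NRF1 motif (GCGCA and GCGC with any 1 base between them), TTTCCCGC (E2F), CCGGAAGT (ETS), CACGTG (E-box) and CCAAT, and the letters were chosen after the values had been seen. The windows lie at chr1:23980328-23980577 (minus strand, SRSF10), chr14:69766892-69767141 (plus strand, SRSF5), chr19:8444725-8444974 (plus strand, HNRNPM) and chr6:144095574-144095823 (minus strand, SF3B5). The start depends on the annotation. By the gene positions of GENCODE 44, the windows of SRSF10 and SRSF5 lie inside the gene. That of HNRNPM spans the gene start, and that of SF3B5 directly precedes it.
SRSF10: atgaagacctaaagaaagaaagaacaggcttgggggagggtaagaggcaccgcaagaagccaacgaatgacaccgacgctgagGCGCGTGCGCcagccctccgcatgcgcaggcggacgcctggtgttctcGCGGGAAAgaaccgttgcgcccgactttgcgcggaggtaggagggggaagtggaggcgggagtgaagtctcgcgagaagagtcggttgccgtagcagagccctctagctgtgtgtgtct
SRSF5: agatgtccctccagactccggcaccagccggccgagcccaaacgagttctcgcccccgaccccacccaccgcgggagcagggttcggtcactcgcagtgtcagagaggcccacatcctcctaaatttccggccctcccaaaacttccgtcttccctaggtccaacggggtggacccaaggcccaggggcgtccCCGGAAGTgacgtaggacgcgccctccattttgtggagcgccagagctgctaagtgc
HNRNPM: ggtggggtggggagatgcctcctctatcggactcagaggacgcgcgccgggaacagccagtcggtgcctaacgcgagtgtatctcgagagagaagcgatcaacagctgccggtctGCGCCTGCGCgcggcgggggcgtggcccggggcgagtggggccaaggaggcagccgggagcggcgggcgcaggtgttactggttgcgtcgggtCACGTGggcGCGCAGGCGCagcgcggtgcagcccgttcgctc
SF3B5: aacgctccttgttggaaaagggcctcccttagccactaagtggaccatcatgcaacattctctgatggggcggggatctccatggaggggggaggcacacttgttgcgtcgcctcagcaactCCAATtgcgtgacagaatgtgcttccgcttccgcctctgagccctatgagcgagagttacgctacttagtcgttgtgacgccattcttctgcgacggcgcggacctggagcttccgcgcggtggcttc

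RefSeq promoters were matched for 53 of the 59 genes, and those of HNRNPA1, HNRNPA1L3, HNRNPCL3, SNRPD1, SRSF2 and SF3B3 were not matched. The ETS letters CCGGAAGT stood in 12 of the 53 (22.6%), against 8.23% of 8364 promoters of the genes tested below and 3.64% of all 27305 promoters of that length. SF3A1, SF3A2, SF3A3, SF3B2, SF3B4 and SF3B6 were among the 12. CCAAT was found in 43.4% of the 53 and 35.7% of tested genes, the E-box in 13.2% and 9.21%, the NRF1 letters in 11.3% and 11.9%, the E2F letters in 3.77% and 2.44%, and ATGGCGGC (YY1) in 0% and 2.22%. A match describes the letters in this window and is not a binding site.

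In both flasks the 54 detected genes together made up slightly more than 1% of all UMIs. They held 71892 UMIs or 11471 CPM (1.15%) in SplitA and 97423 UMIs or 11278 CPM (1.13%) in SplitB. The hnRNPs took the largest part, 4963 CPM in SplitA and 4768 CPM in SplitB, followed by the Sm ring at 3160 and 3230 CPM, the SR proteins at 1920 and 1864 CPM, SF3 at 982 and 987 CPM, and the U1 and U2 proteins SNRPA and SNRPC of the U1 snRNP and SNRPA1 and SNRPB2 of the U2 snRNP at 447 and 429 CPM. Each mRNA is counted at its 3′ end, which gives no reason to divide by length, and the levels are given as CPM. CPM per kb of annotated exon is added only as a second ordering. Its length is that of the union of all exons of the gene in GENCODE 44.

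HNRNPA1 (chr12:54280193-54287088, GRCh38), an hnRNP that promotes exon skipping, stood first on the CPM scale, with 1532 CPM in SplitA and 1486 CPM in SplitB, rank 106 of all genes. It had UMIs in 94.7% of SplitB cells and in a like share of SplitA cells (exact interval 93.6% to 96.2%). The annotation lists 74 pseudogenes of HNRNPA1, so its count depends on how reads shared with these copies were assigned. The Sm proteins SNRPE (847 and 861 CPM), SNRPD2 (574 and 606), SNRPG (497 and 545), SNRPB (444 and 434) and SNRPD1 (393 and 384) took 5 of the next 6 places, and HNRNPA2B1, which also binds RNA for transport, stood among them at 665 and 646 CPM. SF3B6, the SF3B subunit at the branch-site adenosine (361 and 371 CPM), and the SR proteins SRSF2 (358 and 331 CPM) and SRSF9 (310 and 318 CPM) completed the first 10.

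Neighbours in the order from HNRNPA1 down to SNRPD1 had exact Poisson 95% intervals (counting error only) that did not overlap in either flask. Over the whole order, 37 of 53 neighbouring pairs overlapped in both flasks and 8 in neither, so most positions below the first 7 are not resolved. On the scale of CPM per kb of exon the order was led by genes with short transcripts, SNRPE (410), SNRPD2 (409), SF3B5 (358), SF3B6 (325) and SNRPG (295), with HNRNPA1 sixth at 225. Of the first 10, 7 were shared by both scales. Over the 54 genes, CPM and exon length had a Spearman rho of -0.01.

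At the lower end stood SRSF12, a relative of SRSF10, with 11.0 and 10.5 CPM, HNRNPA1L2 with 17.2 and 13.7 CPM, HNRNPLL with 24.1 and 19.9 CPM, and the SF3A subunits SF3A2 with 25.4 and 21.9 CPM and SF3A3 with 29.0 and 26.2 CPM. SRSF12 was seen in 5.60% and 5.55% of cells. HNRNPA1L2 and HNRNPA1L3 are near copies of HNRNPA1, and their counts are uncertain. HNRNPCL1, HNRNPCL2, HNRNPCL3 and HNRNPCL4, relatives of HNRNPC, and the readthrough gene HNRNPUL2-BSCL2 had 0 UMIs. For the HNRNPCL genes this allows up to 0.479 CPM in SplitA and 0.347 CPM in SplitB, by counting error only. That limit does not cover reads shared with related genes. Of the 4001 exon bases of HNRNPUL2-BSCL2, 2391 are shared with HNRNPUL2 and 1610 with BSCL2 on the same strand. Reads in shared bases may be counted for neither gene, so the 0 of HNRNPUL2-BSCL2 sets no limit. Exons of another gene on the same strand overlap those of 11 of the 59 genes, among them HNRNPH2 (RPL36A-HNRNPH2), SRSF1, SRSF6, SNRPB and HNRNPUL2, and 16 are overlapped on the opposite strand.

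**Figure D1:**
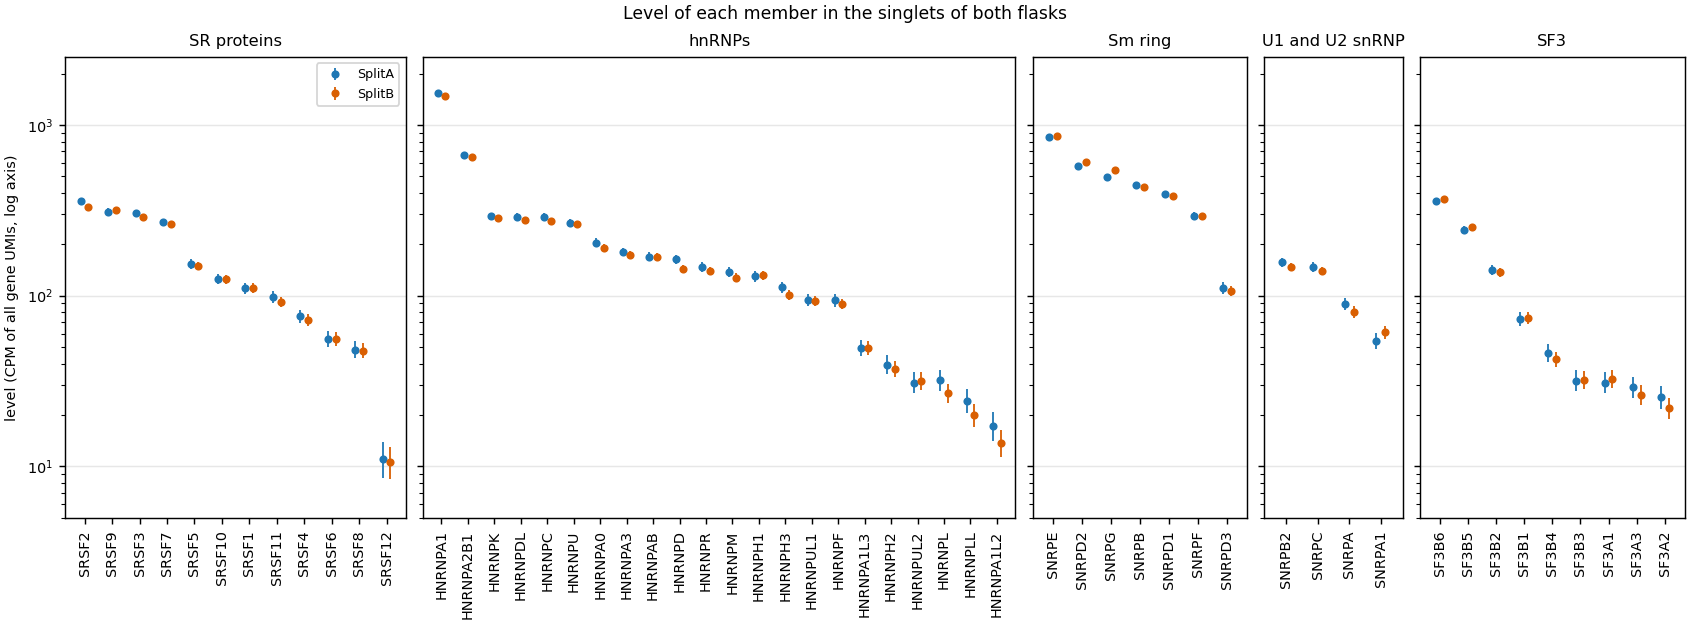
Level of each of the 54 detected genes (y axis, CPM of all gene UMIs, log axis) by group, in the singlets of SplitA (blue) and SplitB (orange), with exact Poisson 95% intervals as bars. The points of both flasks nearly coincide, HNRNPA1 lies highest at 1532 and 1486 CPM and SRSF12 lowest at 11.0 and 10.5 CPM.

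The flasks gave almost the same levels. The ratio of SplitB to SplitA ran from 0.793 (HNRNPA1L2) to 1.13 (SNRPA1) with a median of 0.969, and the intervals of 51 of 54 genes overlapped between flasks. With 1 flask against 1 flask no test was made. In both flasks 20 genes were found in at least 50% of the cells. For neither count is a share over all genes given.

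The spread of each gene between cells was compared with the spread that counting noise alone would give, in the 899 SplitA and 1195 SplitB singlets with at least 1000 genes. The ratio of observed variance to counting noise is about 1 where a gene takes the same share of the UMIs in every cell. Among the 47 genes with at least 0.2 UMIs per cell the median ratio was 1.23 in SplitA and 1.21 in SplitB, against 1.10 and 1.11 for all 3337 genes of that level. A ratio above 1.2 was found for 26 of the 47, against 27.3% of all these genes. The genes differ in level, and the difference depended on it. The median was 1.07 for the 10 genes of 0.2 to 0.5 UMIs per cell, the same as for other genes of that level, 1.198 for 15 genes of 0.5 to 1 against 1.11, 1.23 for 11 genes of 1 to 2 against 1.18, and 1.44 for the 11 genes of 2 or more against 1.64.

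HNRNPA2B1 had the highest ratio, with 2.49 in SplitA and 2.34 in SplitB. HNRNPA1 (1.81 and 1.89), SNRPB2 (1.60 and 1.93), HNRNPDL, a relative of HNRNPD (1.65 and 1.60), and SNRPB (1.58 and 1.58) followed. The lowest ratios were those of SF3A1 (0.953 and 1.05), SRSF4 (1.01 and 1.03), SRSF8, a copy of SRSF2 (1.01 and 1.04), SRSF6 (1.04 and 1.04) and SF3B4 (1.10 and 1.03), all with counts near pure counting noise. These genes had only 0.210 (SF3A1) to 0.474 (SRSF4) UMIs per cell, a level where other genes had a median of 1.07. HNRNPA1 had 9.96 UMIs per cell and SNRPB2 0.932. The order of the ratios thus depends on level, and a low ratio does not show a stable gene. Part of the spread between cells moved with the mitochondrial share of the cell. In cells under 15% the mean ratio of both flasks stayed at 1.87 for HNRNPA1 and 1.58 for SNRPB and was 2.05 for HNRNPA2B1, while HNRNPK went from 1.58 to 1.21, SF3B2 from 1.51 to 1.09 and HNRNPM from 1.46 to 1.10.

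The Sm ring and the hnRNPs formed the clearest blocks of correlated genes, as a description over cells. Over the 1081 pairs of the 47 genes, Pearson's r of log-normalized counts had a median of 0.031 in SplitA (899 cells) and 0.026 in SplitB (1195 cells), against 0.0076 and 0.0082 over all pairs of the 3337 genes. An r above 0.1 was found for 15.1% and 13.3% of the pairs, against 3.16% and 2.93% of all pairs. The 3337 genes were not matched to the 47 in level, and the part of level in this difference was not tested. Pairs within the Sm ring had a median r of 0.116 and 0.121 and pairs of hnRNPs 0.070 and 0.056, whereas pairs of SR proteins had 0.032 and 0.036, and pairs of an Sm protein and an hnRNP 0.0007 and 0.0020. The order of the pairs was alike in both flasks (Spearman rho 0.664 over the 1081 pairs, which share genes, cells of 1 library and depth).

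The highest mean r of both flasks was that of HNRNPU, which also binds chromatin, with HNRNPA2B1 (0.280 in SplitA, 0.293 in SplitB). SNRPG with SNRPD1 (0.231 and 0.315), SNRPE with SNRPD1 (0.255 and 0.288) and SNRPE with SNRPG (0.211 and 0.307) were all pairs of the Sm ring. SRSF7 with SRSF2 (0.261 and 0.261) was the highest pair of SR proteins. HNRNPA2B1 was also in the pairs with HNRNPK (0.283 and 0.213), HNRNPA3 (0.228 and 0.256), HNRNPM (0.258 and 0.203) and HNRNPDL (0.249 and 0.209), and HNRNPU with HNRNPK (0.243 and 0.190) was the tenth.

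These correlations changed with mitochondrial share and with depth. In cells under 15% mitochondrial share the mean r was 0.254 for SRSF7 with SRSF2, 0.231 for HNRNPU with HNRNPA2B1 and 0.220 for SNRPG with SNRPD1, but 0.162 for HNRNPA2B1 with HNRNPK. When every cell was thinned to 2000 UMIs, pairs within the Sm ring had a median r of 0.044 in SplitA and 0.049 in SplitB, close to the 0.044 and 0.037 of pairs of hnRNPs, and pairs of SR proteins had 0.0065 and 0.022. The 10 pairs then had a mean r between 0.067 (SNRPE with SNRPG) and 0.141 (HNRNPA2B1 with HNRNPM). The lowest r, SNRPE with HNRNPK at -0.185 and -0.129, was -0.015 in cells under 15%, while SNRPG with HNRNPA1 went from a mean of -0.1502 to -0.173. HNRNPK, HNRNPM and HNRNPA2B1 had an r with mitochondrial share of 0.410, 0.385 and 0.374 in SplitA, and SNRPE and SF3B5 one of -0.321 and -0.255. When cells under 15% were also thinned to 2000 UMIs, pairs within the Sm ring had a median r of 0.043 in SplitA and 0.048 in SplitB. Pairs of hnRNPs then had 0.020 and 0.022, and pairs of SR proteins 0.009 and 0.016. The part of mitochondrial share and depth in the remaining r was not tested. For the thinned cells and the cells under 15%, no value over all pairs of genes is given.

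**Figure D2:**
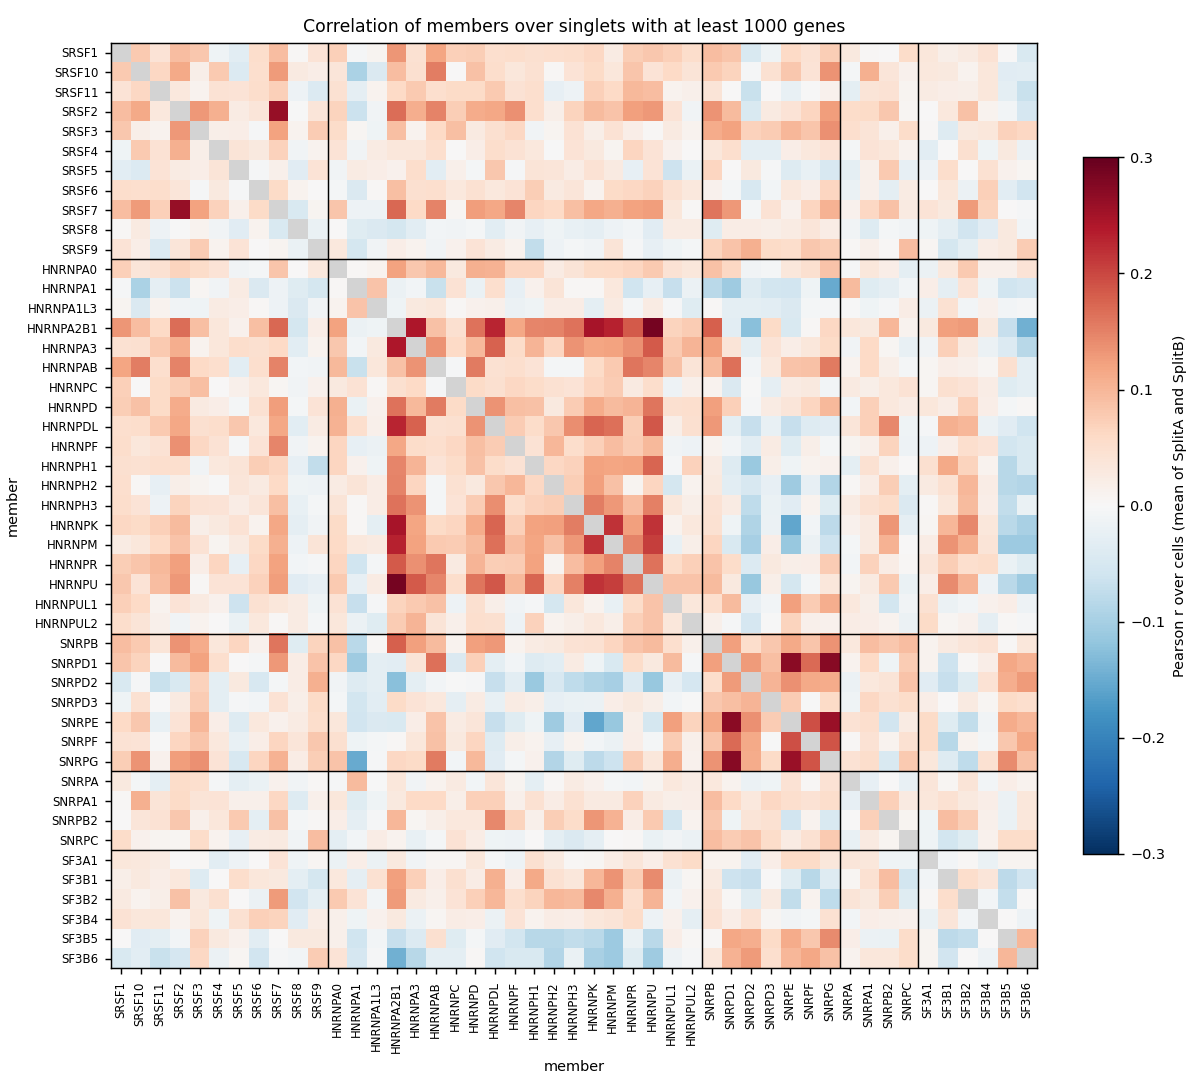
Mean Pearson r of both flasks for each pair of the 47 genes with at least 0.2 UMIs per cell, in singlets with at least 1000 genes (colour, from -0.3 to 0.3; grey, a gene with itself; black lines separate the groups). The block of the Sm ring and that of hnRNPs around HNRNPA2B1 and HNRNPU are the reddest, with a highest r of 0.287.

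Each of the 47 genes was also set against the sum of all other genes of the name rule. HNRNPA2B1 followed it most closely (r of 0.404 and 0.374), and the median over the 47 genes was 0.108, against 0.0017 over other genes, which were not matched for level. The 10 genes outside the name rule most like the sum were TUBA1B (mean r 0.491), TUBB, H2AZ1, ACTB, HSP90AA1, HMGB1, TUBA1A, TUBB4B, HMGB2 and NASP (0.349), a set of tubulin, actin, chromatin and chaperone genes. In G1 cells alone all 10 had a lower mean r, from 0.136 (NASP) to 0.356 (ACTB). It was 0.268 for TUBA1B, 0.194 for TUBB4B and 0.176 for HMGB2. NASP, TUBB4B and HMGB2 belong to the gene lists that set the phase of a cell (below). Choosing G1 cells thus narrows the range of these genes themselves, and nothing is concluded from their lower r. The median of the splicing genes was 0.092 in G1 cells, and the part of the cycle in these r was not tested.

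Cells with at least 1000 genes were placed in a cycle phase by their score for 43 S genes and 54 G2M genes, lists that hold none of the 59 genes. SplitA had 374 G1, 287 S and 238 G2M cells and SplitB had 512, 354 and 329. UMIs were summed per flask and phase, and the 6 sums were compared with edgeR's quasi-likelihood test with the flask as a block and Benjamini-Hochberg adjustment over 10025 genes. The genes tested go down to 60 UMIs over the 6 sums. Shares over all genes, here and for mitochondrial share, are thus not matched to the splicing genes in level. With the flask as a block, the p-values rest on how far differences between phases varied from flask to flask. With 2 residual degrees of freedom, edgeR shares this spread between genes, so it is not that of 1 gene alone. The flasks came from 1 culture and 1 library, so the p-values hold no spread between cultures. The phases are taken from RNA as well, and G1 cells serve as the reference of both phase comparisons.

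In S cells many of the splicing genes took a larger share of the UMIs than in G1 cells by edgeR. Of the 54 genes tested, 29 were higher and 3 lower at an adjusted p under 0.05 by edgeR, while of all genes 11.5% were higher and 9.86% lower, together 21.3%. DESeq2 on the same sums called 16 higher and 1 lower, against 4.35% and 2.92% of all genes. The median difference of the 54 was 0.31 on the log2 scale (0.36 in SplitA and 0.29 in SplitB), against -0.001 over all genes. In both flasks 44 of 54 were higher, a count for which no share over all genes is given. By group, 7 of 12 SR proteins, 13 of 22 hnRNPs, 5 of 7 Sm proteins, 1 of 4 U1 and U2 proteins and 3 of 9 SF3 subunits were higher. The sum of the 54 went from 0.984% of UMIs in G1 to 1.22% in S in SplitA and from 0.977% to 1.21% in SplitB.

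SRSF10, an SR protein that represses splicing when dephosphorylated, went from 80.9 to 156 CPM in SplitA and from 77.6 to 152 CPM in SplitB. Both flasks were thus higher in S, by 1.84-fold in the fit (log2 0.88 ± 0.09, SE, edgeR adjusted p = 4.91e-19). HNRNPAB went from 111 to 205 CPM and from 111 to 218 CPM, and SRSF7, which also serves mRNA export, from 175 to 322 CPM and from 185.5 to 317 CPM. Their log2 differences were 0.86 ± 0.08 and 0.74 ± 0.07. The lowly expressed SF3 subunits SF3B3 (14.3 to 36.6 CPM, 22.1 to 35.2 CPM) and SF3A3 (19.4 to 36.0 CPM, 16.8 to 28.7 CPM) completed the 5 largest, at 0.84 ± 0.19 and 0.75 ± 0.19.

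In the other direction, HNRNPA1 went from 1634 to 1471 CPM in SplitA and from 1583 to 1460 CPM in SplitB (log2 -0.21 ± 0.03, edgeR adjusted p = 1.52e-08). It fell in both flasks although 13 other hnRNPs rose. SRSF5 (160 to 132 CPM, 153 to 146 CPM) had a log2 difference of -0.23 ± 0.08 and SF3B6 (396 to 350 CPM, 407 to 391 CPM) one of -0.19 ± 0.06. On totals without TMM, where the median of all genes shifts to 0.08, 33 genes were higher (14.9% of all genes) and HNRNPA1 was the only one lower (7.07%), SRSF5 and SF3B6 not passing the threshold. Ribosomal protein genes took 35.8% of UMIs in G1 and 33.1% in S in SplitA, 35.4% and 33.0% in SplitB, and the part of this in the differences was not tested.

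In G2M cells the hnRNPs were the group with the largest part of its genes higher than in G1. Of 54 genes, 28 were higher and 7 lower than in G1 by edgeR (all genes: 16.3% higher, 15.8% lower, 32.0% together), with a median log2 difference of 0.26 against 0.03 over all genes. DESeq2 called 20 higher and 3 lower (all genes: 5.0% and 5.06%). Higher by edgeR were 16 of 22 hnRNPs, 6 of 12 SR proteins, 4 of 7 Sm proteins, 0 of 4 U1 and U2 proteins and 2 of 9 SF3 subunits. Of the 29 genes higher in S, 24 were also higher in G2M, a count in which the shared G1 reference enters. The overlap over all genes is not given, so this count is not a trait of the splicing genes.

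HNRNPA3 went from 121 to 227 CPM in SplitA and from 117 to 235 CPM in SplitB, HNRNPAB from 111 to 218 CPM and from 111 to 216 CPM, and HNRNPR, which acts in axons of motor neurons among other places, from 93.1 to 195 CPM and from 91.1 to 163 CPM. All were above G1 in both flasks, with log2 differences of 0.85 ± 0.08, 0.85 ± 0.08 and 0.83 ± 0.09. SF3B3 (14.3 to 44.5 CPM, 22.1 to 35.0 CPM) and HNRNPUL2 (19.8 to 39.3 CPM, 23.6 to 45.5 CPM) were the other 2 of the 5 largest, at 0.93 ± 0.18 and 0.85 ± 0.17. HNRNPA2B1, with many more UMIs, went from 453 to 825 CPM and from 464 to 810 CPM (0.72 ± 0.05, edgeR adjusted p = 4.38e-52).

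SF3B6 (396 to 354 CPM, 407 to 329 CPM), HNRNPA1 (1634 to 1431 CPM, 1583 to 1350 CPM) and SNRPD2 (620 to 532 CPM, 647 to 563 CPM) fell by 0.36, 0.33 and 0.32 on the log2 scale. SRSF5 fell by 0.32 and SNRPB2 by 0.27, and HNRNPC and SF3B5 by 0.20 each. SNRPD2 thus differed from SNRPB, SNRPD1, SNRPE and SNRPG, the Sm proteins that were higher. Without TMM, 33 genes were higher (22.5% of all genes) and 4 lower (11.1%), the 4 being HNRNPA1, SF3B6, SNRPD2 and SRSF5, with the median of all genes at 0.14. These falls are in share. In mean UMIs per cell, the 54 genes together had 62.4 in G1, 74.3 in S and 89.5 in G2M in SplitA, and 64.7, 78.8 and 87.3 in SplitB. In G2M 44 genes had more UMIs per cell than in G1 in both flasks and 2 had fewer, and in S 44 and 8. No share over all genes is given for these counts. The 2 with fewer in G2M were SRSF8 and SNRPD2. SNRPD2 went from 3.93 in G1 to 3.87 in G2M in SplitA and from 4.29 to 4.06 in SplitB. Of the other genes lower in share, HNRNPA1, SF3B6, SRSF5, SNRPB2 and SF3B5 had fewer UMIs per cell in SplitB and more in SplitA. HNRNPC, lower in share, had 1.79 UMIs per cell in G1 and 1.83 in G2M in SplitA, and 1.76 and 1.88 in SplitB. G2M cells also held more UMIs of all genes, with a median of 7096 against 5828.5 in G1 and 5826 in S in SplitA, and of 7047 against 6092 and 6110.5 in SplitB.

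**Figure D3:**
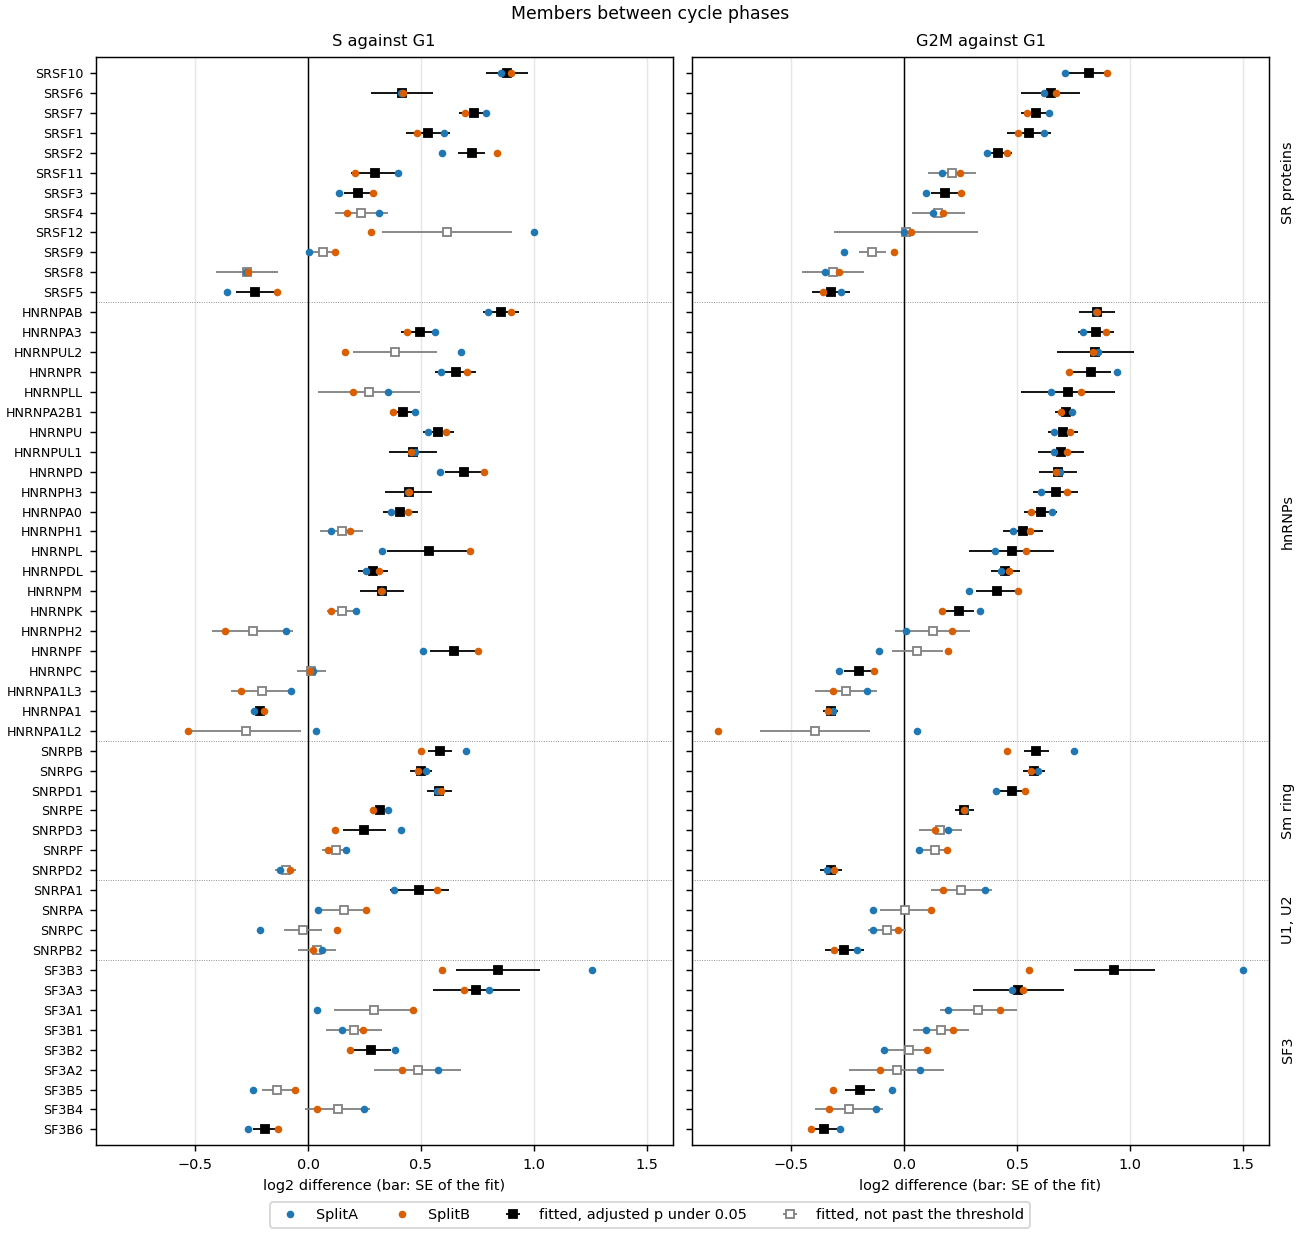
Log2 difference of each gene in S (left) and G2M (right) against G1, with the fitted value and its SE (squares, filled where the adjusted p is under 0.05) and the values of SplitA (blue) and SplitB (orange). In S, 29 filled squares lie to the right and 3 to the left, and in G2M 28 and 7.

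Mitochondrial share is the percentage of a cell's UMIs from 13 mitochondrial protein-coding genes. In SplitA 847 cells were under 15%, 139 at 15 to 30% and 193 at 30% or more, and in SplitB 1130, 128 and 347. These classes differed in much else. The median UMIs per cell were 6244, 1853 and 1511 in SplitA and 6505, 2054 and 1468 in SplitB, MALAT1 and NEAT1, long RNAs that stay in the nucleus, went from 1.53% and 1.49% of nuclear-gene UMIs under 15% to 4.67% and 4.79% at 30% or more, and ribosomal protein genes went from 38.0% and 37.9% to 13.2% and 13.1%. CPM here are of nuclear-gene UMIs, and the test was edgeR's on 6 sums as above over 10228 genes. Depth, nuclear RNA and ribosomal protein share move with the class, and their part in the differences below was not tested.

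As shares of nuclear-gene UMIs, the splicing genes split by group: hnRNPs were mostly higher in cells of high mitochondrial share and the Sm ring was lower. At 30% or more, 26 of 54 genes were higher and 14 lower than under 15% by edgeR, against 21.2% and 20.2% of all genes (41.4% together), with a median log2 difference of 0.45 against 0.04 over all genes. DESeq2 called 20 and 9 (all genes: 12.1% and 15.8%). Among cells with at least 1000 genes, 13 were higher and 8 lower (all genes: 5.99% and 10.3%), with a median of 0.28 against -0.24. In all singlets, higher and lower by edgeR were 13 and 2 of 22 hnRNPs, 6 and 3 of 12 SR proteins, 0 and 6 of 7 Sm proteins, 2 and 1 of 4 U1 and U2 proteins and 5 and 2 of 9 SF3 subunits.

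The split depended on the scaling. With UMI totals and no TMM, the median of all genes was 0.73, 37 genes were higher (41.0% of all genes) and 7 lower (9.72%), the 7 being SF3B5, SF3B6, SNRPD1, SNRPD2, SNRPE, SNRPF and SNRPG. HNRNPAB, SNRPC, SNRPD3 and SRSF9, lower with TMM, changed sign. The directions below are on the TMM scale, and those of the 7 genes and of all 26 higher ones were the same on both.

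HNRNPM, an hnRNP that binds GU-rich RNA, went from 109 CPM under 15% to 608 at 15 to 30% and 837 at 30% or more in SplitA, and from 108 to 480 and 640 CPM in SplitB. Both flasks were higher in both classes than under 15%, and the difference at 30% or more was 4.16-fold in the fit with TMM, which is less than the ratio of these CPM (log2 2.06 ± 0.13, edgeR adjusted p = 1.11e-35). HNRNPK, which binds C-rich RNA, went from 253 to 1203 and 1371 CPM in SplitA and from 257 to 820 and 1317 CPM in SplitB (1.72 ± 0.13). HNRNPH2, which binds runs of G, went from 31.4 to 197 and 215 CPM and from 30.4 to 160 and 198 CPM (2.05 ± 0.19).

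The large SF3B subunits moved the same way. SF3B1, which contacts the branch site and is often mutated in blood cancers, went from 62.1 to 233 and 439 CPM in SplitA and from 65.4 to 226 and 368 CPM in SplitB (1.95 ± 0.15 at 30% or more). SF3B2 went from 123 to 613 and 612 CPM and from 121 to 500 and 610.5 CPM (1.65 ± 0.13). At 15 to 30%, SF3A3 was also among the 5 largest, with 26.8 to 128 CPM in SplitA and 22.8 to 131 CPM in SplitB (1.82 ± 0.25).

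The small SF3B subunits and the Sm ring lay on the other side. SF3B5 went from 285 to 110 and 105 CPM in SplitA and from 294 to 209 and 92.8 CPM in SplitB (log2 -2.27 ± 0.19, edgeR adjusted p = 1.65e-23). SNRPE went from 979 to 631 and 481 CPM and from 999 to 718 and 497 CPM (-1.70 ± 0.14). Every flask was lower in the higher class for both genes. At 30% or more SNRPF fell by 1.94, SNRPG by 1.90, SNRPD1 by 1.55 and SF3B6 by 1.28 on the log2 scale. SNRPB, which shares the ring with them, had 470 CPM under 15% and 806 at 30% or more in SplitA and 470 and 784 CPM in SplitB (0.08 ± 0.13, edgeR adjusted p = 0.657).

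**Figure D4:**
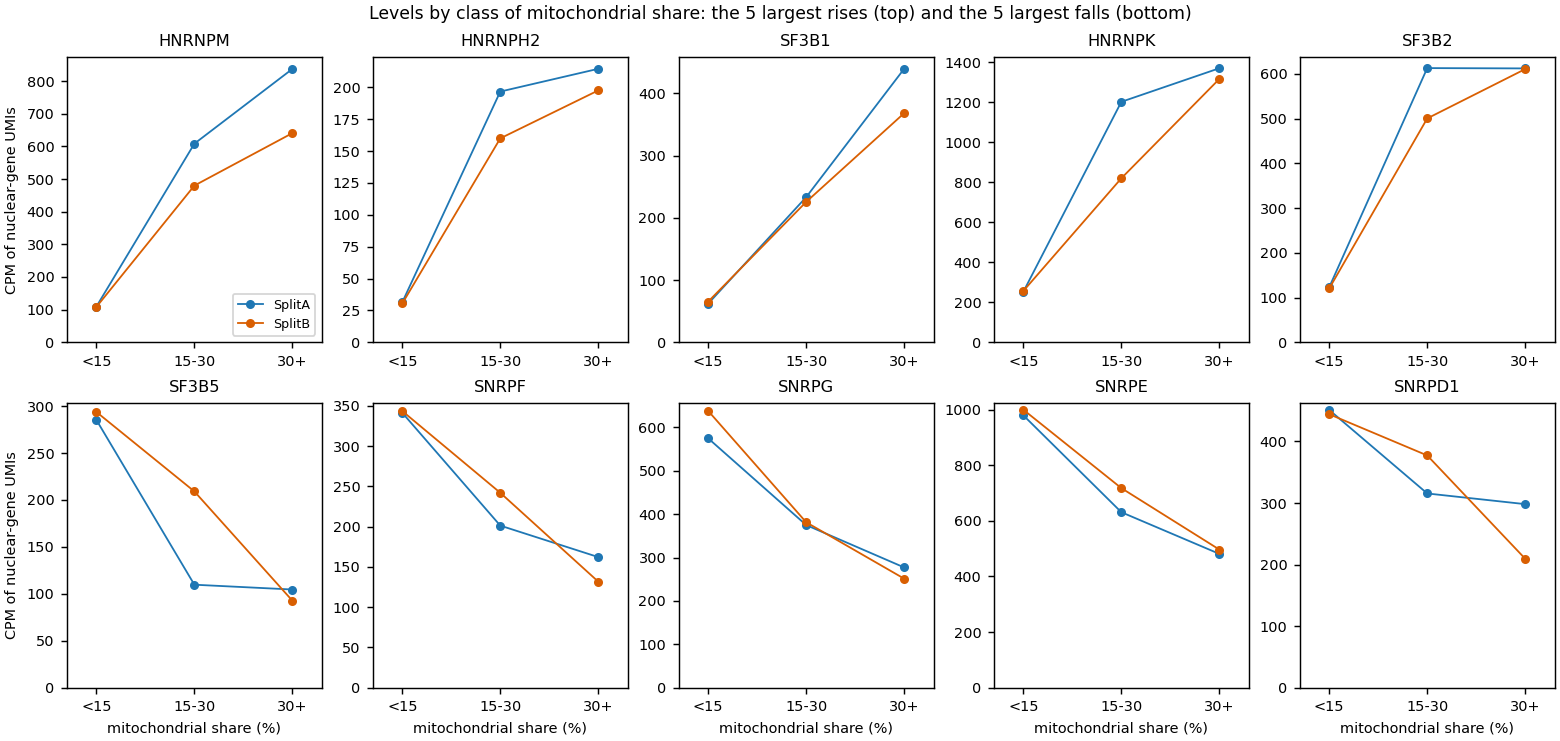
Level (y axis, CPM of nuclear-gene UMIs) in the 3 classes of mitochondrial share (x axis, percent) in SplitA (blue) and SplitB (orange) for the 5 genes with the largest rises (top) and the 5 with the largest falls (bottom) at 30% or more. HNRNPM reaches 837 and 640 CPM from 109 and 108, and SF3B5 goes down to 105 and 92.8 CPM from 285 and 294.

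The middle class gave the same groups. At 15 to 30%, 22 genes were higher and 9 lower by edgeR (all genes: 12.9% and 14.1%, 27.1% together), with 14 of 22 hnRNPs higher and 5 of 7 Sm proteins lower. The median was 0.39 against -0.03 over all genes. DESeq2 called 16 and 8 (all genes: 11.5% and 13.7%), and in cells with at least 1000 genes 16 were higher and 8 lower (5.64% and 8.89%), with a median of 0.14 against -0.12. The largest log2 differences were those of HNRNPH2 (1.94 ± 0.21), SF3A3, HNRNPM (1.74 ± 0.14), SF3B2 (1.61 ± 0.14) and HNRNPK (1.40 ± 0.13), and SF3B5, SNRPG, SNRPF, SRSF8 and SNRPE fell by 1.41, 1.253, 1.19, 1.15 and 1.12. Without TMM there were 38 higher (29.0% of all genes) and 4 lower (5.46%), SF3B5, SNRPE, SNRPF and SNRPG, with the median of all genes at 0.55. Both classes share the cells under 15% as reference, and 20 genes were higher and 9 lower in both. Without the overlap over all genes, which is not given, these counts are not a trait of the splicing genes.

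A larger share does not mean more RNA per cell. The 54 genes together had a mean of 74.2 UMIs per cell under 15%, 35.0 at 15 to 30% and 21.9 at 30% or more in SplitA, and 75.8, 36.1 and 20.6 in SplitB. At 30% or more, 0 genes had more UMIs per cell than under 15% in both flasks and 51 had fewer in both. At 15 to 30%, 5 had more in both flasks (SNRPB2, SF3B2, HNRNPM, HNRNPH2 and SF3A3). No share over all genes is given for these counts, and the median UMIs per cell of all genes also fell, as given above. HNRNPM had 0.669 UMIs per cell under 15% and 0.829 at 30% or more in SplitA, and 0.680 and 0.617 in SplitB, so it nearly kept its count while SNRPE went from 5.99 to 0.477 and from 6.28 to 0.478, and SF3B5 from 1.75 to 0.104 and from 1.85 to 0.0893.

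Among singlets of 1000 to 3000 UMIs the genes were called about as often as all genes at 30% or more. When cells were thinned to a like depth, they were called higher more often than all genes. In singlets of 1000 to 3000 UMIs, with 18 SplitA and 33 SplitB cells in the reference class, 47 of the genes were tested. Of these, 10 (21.3%) were higher and 11 (23.4%) lower at 30% or more, against 17.7% and 22.2% of all genes, with a median log2 difference of 0.33 against 0.26. At 15 to 30% 8 (17.0%) were higher and 9 (19.1%) lower, against 11.2% and 17.9%, with a median of 0.38 against 0.21. Of the calls made on all singlets, 10 of 26 higher and 10 of 14 lower were made again at 30% or more, and 8 of 22 and 7 of 9 at 15 to 30%. These cells are part of the same singlets, so the calls are not independent. The calls on all singlets may include genes not tested here. Without the share over all genes, which is not given, these counts are not a trait of the splicing genes. The 10 higher in both at 30% or more were HNRNPA2B1, HNRNPH1, HNRNPK, HNRNPM, HNRNPR, HNRNPU, SF3B1, SF3B2, SRSF7 and SRSF10, and the 10 lower in both included SF3B5 and all of the Sm ring but SNRPB. HNRNPM had a log2 difference of 1.51 ± 0.35 and SF3B1 one of 2.32 ± 0.51 there, SNRPE one of -1.31 ± 0.25 and SF3B5 one of -1.92 ± 0.40. HNRNPH2 (0.73 ± 0.51) and SNRPB2 (0.002 ± 0.32) did not pass the threshold.

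**Figure D5:**
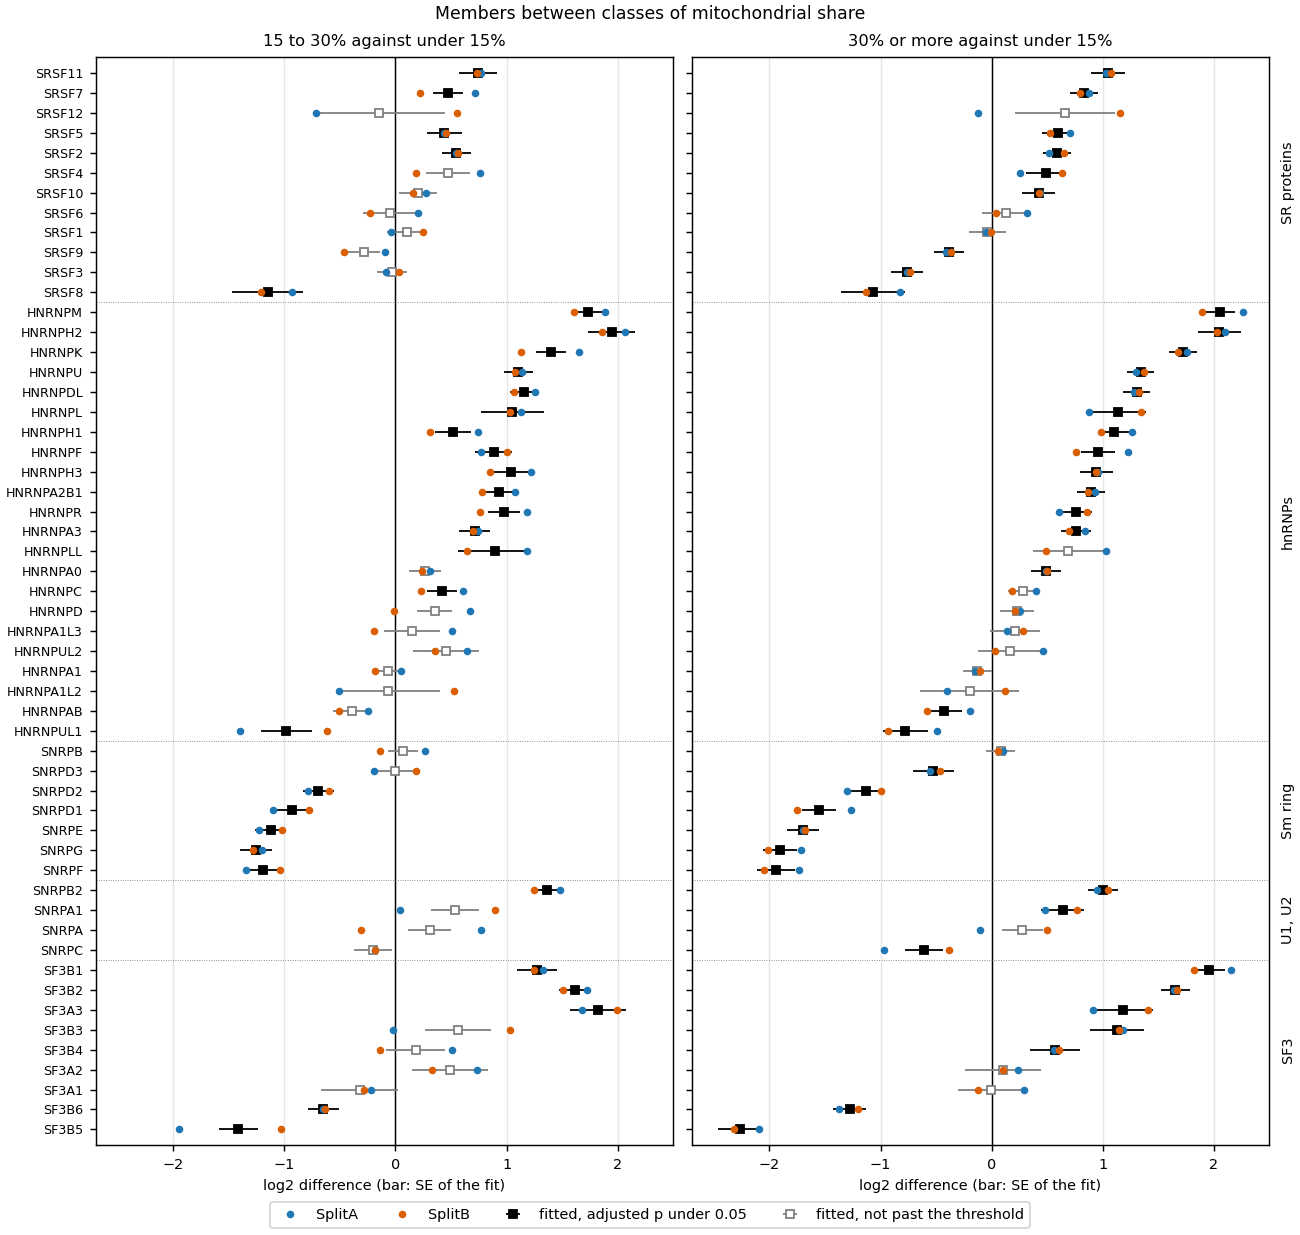
Log2 difference of each gene at 15 to 30% (left) and at 30% or more (right) mitochondrial share against under 15%, with the fitted value and its SE (squares, filled where the adjusted p is under 0.05) and the values of SplitA (blue) and SplitB (orange), on the TMM scale. At 30% or more the 6 filled Sm proteins lie to the left of 0 and 13 filled hnRNPs to the right.

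Exon length went with these differences more than genomic span did among the 54 genes. The log2 differences of the 54 genes and their exon length had a Spearman rho of 0.31 in S, 0.51 in G2M, 0.44 at 15 to 30% and 0.48 at 30% or more, against 0.13, 0.23, 0.23 and 0.30 over all genes tested. With genomic span in place of exon length, rho was 0.10, 0.15, 0.25 and 0.28 for the 54 genes and 0.16, 0.25, 0.17 and 0.21 over all genes. SF3B5 has 690 bases of exon and SNRPE 2080, and SF3B1 has 10421 and HNRNPM 5606, but HNRNPH2, with one of the largest rises, has 2296 and SNRPD1, with one of the largest falls, 4862. The genes share libraries and cells, and the part of length in the differences was not tested.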

How the data were processed

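The values are UMI counts that the authors made with Cell Ranger 4.0.0 (STAR 2.7 in the submitters' processing notes) from a 3′ mRNA library and a hashtag library and deposited as the filtered cell matrix, without normalization. The release of the gene annotation is not given in the sources used here. Symbols, positions and exons come from GENCODE 44, in which 33113 of 33538 gene identifiers were found.

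Flasks were assigned by the limits of the study's code. Log-normalization used a scale factor of 10000, and phases came from CellCycleScoring in Seurat 5.3.0. Flasks served as replicates 1 and 2, and the same flask pairs its classes, so the flask was a block in edgeR 4.0.16 (R 4.3.3; TMM, genes with at least 60 UMIs over the 6 sums, 2 residual degrees of freedom). The SE given with a log2 difference is its absolute value divided by the square root of edgeR's F statistic, since the test reports no SE. Plain totals, DESeq2 1.42.0 and other filters were alternatives. Cells were thinned at random where stated. Intervals are exact at 95% and cover counting error only, and 0 UMIs are read as up to 3. Scripts were tested on simulated data.

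The genes named are the 10 highest and 5 lowest in CPM, the 5 highest and 5 lowest in the ratio of variance to counting noise, the 10 pairs of highest r, the 5 largest rises and falls of each comparison and the 10 outside genes most like the sum. Others (such as SNRPB, HNRNPA2B1 in G2M and SNRPB2 in cells of like depth) were chosen after their values were seen. The genes, lists and tests were chosen with earlier results of these data known.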

Additional observations from a re-analysis of the deposited data

How the results depend on the processing

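Of 1612 alternative values for the 138 calls of the 4 comparisons, 1421 were counted as the same, 181 as weaker and 10 as reversed. The 1612 include values with 1 flask left out, which have no p-value. The 1421 is thus not a count of calls that kept their side of the threshold. In the class of 30% or more, HNRNPAB (0.26), SNRPC (0.081), SNRPD3 (0.16) and SRSF9 (0.304) reversed on UMI totals, and HNRNPAB (0.38), HNRNPL (-0.19) and HNRNPUL1 (0.91) in cells of 1000 to 3000 UMIs. At 15 to 30%, HNRNPL (-0.38) and HNRNPUL1 (0.52) reversed in cells of 1000 to 3000 UMIs, and HNRNPC (-0.11) with 9 mitochondrial genes. The flask block pairs classes of the same flask. With no replicate block the counts of higher and lower genes were 28 and 3 in S, 28 and 7 in G2M, 22 and 10 at 15 to 30% and 27 and 14 at 30% or more (all genes: 11.3% and 9.61%, 16.0% and 15.4%, 13.2% and 14.6%, 22.0% and 20.7%). DESeq2 gave 16 higher and 1 lower in S (all genes: 4.35% and 2.92%), 3 lower in G2M (5.06%), and 9 lower (15.8%) with a median of 0.35 at 30% or more. UMI totals without TMM (chosen after seeing the data) gave 1 lower and a median of 0.39 in S, 4 lower and 0.37 in G2M, 38 higher, 4 lower and 0.97 at 15 to 30%, and 7 lower and 1.14 at 30% or more. DESeq2 size factors gave medians of 0.24 in G2M and 0.36 at 30% or more, and a filter of 1 UMI 0.34 in the latter. Thinning to 2000 UMIs gave medians of 0.41 in S and 0.35 in G2M, a hashtag limit of 100 gave 0.22 in G2M, and thinning to 500 nuclear UMIs gave 0.60 at 30% or more. Cells with at least 1000 genes gave a median of 0.14 at 15 to 30%, and 13 higher (all genes: 5.99%), 8 lower (10.3%) and a median of 0.28 at 30% or more, where the high class had 17 and 44 cells. Cells of 1000 to 3000 UMIs gave 8 higher at 15 to 30% (all genes: 11.2%), and 10 higher (17.7%) and a median of 0.33 at 30% or more. A share from 9 mitochondrial genes gave 14 lower at 15 to 30% (all genes: 15.7%), and with 1 and 9 cells in the high class that class could not be compared. With 1 flask left out no residual degrees of freedom remain, so calls could not be made, and the medians ranged from 0.29 to 0.36 in S, 0.26 to 0.28 in G2M, 0.24 to 0.51 at 15 to 30% and 0.42 to 0.49 at 30% or more. The cause of these changes was not tested.

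The summed level was 12771 CPM of nuclear-gene UMIs and 11198 CPM in cells with at least 1000 genes. The median ratio of variance to counting noise was 1.07 thinned to 2000 UMIs, 1.26 on nuclear-gene UMIs, 1.21 without cells over 15000 UMIs and, chosen after seeing the data, 1.17 in cells under 15% mitochondrial share and 1.17 in G1 cells. The median r was 0.015 thinned to 2000 UMIs and 0.024 in G1 cells. Genes with few UMIs, such as SF3B3, SF3A3 and HNRNPH2, are limited by depth, and with 2 flasks of 1 library no variation between cultures was measured.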

Other observations

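The other splicing genes that the name rule does not take, in lists chosen with earlier results known, are given by their counts beside those of all genes. In S against G1, 5 of 13 hnRNPs with another name were higher and 1 lower by edgeR, 10 and 0 of 28 proteins of the U1, U2, U4, U5 and U6 snRNPs and the Prp19 complex, and 3 and 0 of 15 SR-related proteins and SR protein kinases, against 11.5% and 9.86% of all genes. In G2M the counts were 9 and 1, 11 and 1, and 3 and 0, against 16.3% and 15.8% of all genes, so that the 3 of 15 are near the share of all genes. PTBP1, which represses neuronal exons, had a log2 difference of 0.58 ± 0.10 in S and 0.77 ± 0.10 in G2M.

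At 30% or more mitochondrial share, 15 of the 28 snRNP and Prp19 proteins were higher and 10 lower, against 21.2% and 20.2% of all genes. The lower ones included LSM2 (-2.17 ± 0.22) and LSM7 (-1.81 ± 0.15), proteins of the ring on U6 RNA, and TXNL4A (-1.85 ± 0.17), a small U5 protein. Higher were PRPF8 (1.22 ± 0.17), EFTUD2 (1.60 ± 0.25) and DHX15 (1.71 ± 0.20), large proteins of the U5 snRNP or of spliceosome release, and SNRNP70 (1.47 ± 0.14) of the U1 snRNP. Among hnRNPs with another name, 6 were higher, EWSR1 (1.96 ± 0.13) among them, and 3 lower, and SON, a protein of nuclear speckles, was at 1.76 ± 0.12. At 15 to 30% the counts were 13 and 10 for the snRNP and Prp19 proteins, 5 and 3 for hnRNPs with another name and 5 and 0 for the SR-related list, against 12.9% and 14.1% of all genes, and at 30% or more the SR-related list had 5 and 0.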
